A study of Mus musculus with 15 samples.

Results

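Collagen chain genes encode the alpha chains that wind into collagen triple helices. They were taken as all protein-coding genes whose mouse symbol reads Col, a number, a, a number, and 44 of the 36528 gene identifiers in the count files met that rule, of which 31049 carry a symbol. By the structure their products build, 11 are fibrillar chains, 9 belong to the fibril-associated collagens and their relatives, 6 are type IV chains of basement membranes, 3 are other collagens of the basement-membrane zone, 6 are type VI chains, 4 are transmembrane collagens, 3 are short-chain network collagens, and Col26a1 and Col28a1 stand in none of these classes.

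The libraries hold polyadenylated RNA from nests of basal cell carcinoma cut by laser from fresh frozen mouse skin. All 15 came from K14Cre-ER; Ptch1fl/fl; p53fl/fl; Lgr5GFP mice, in which an inducible Cre recombinase under the keratin 14 promoter acts on floxed Ptch1 and p53 alleles in keratin 14-expressing epithelium, so every group carries the same alleles and none is normal skin. A first group of 5 libraries came from nests left after 28 days of vismodegib, which blocks the Hedgehog transducer Smoothened. The other two groups, with 5 libraries each, came from untreated nests positive and negative for the proliferation antigen Ki67. The vismodegib nests were not split by Ki67 in the labels. No age is stated in the labels, and no label says which mouse a library came from. Libraries of 1 group could therefore hold nests of the same mouse, which would make the p-values too small, and the spread they rest on may be partly technical. Replicate numbers follow accession order and pair nothing, and values listed for a group below run from library 1 to library 5.

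Collagens are secreted by assembling chains into a triple helix in the endoplasmic reticulum, where prolines and lysines are modified, before the ends are trimmed and the molecules are crosslinked outside the cell. Fibrillar collagens give the dermis its strength and are made mainly by fibroblasts, while fibril-associated collagens coat those fibrils. Type IV collagen forms the sheet of the basement membrane on which epidermis, hair follicles and basal cell carcinoma nests sit, type VII anchors that sheet to the dermis, and the transmembrane collagen XVII links the basal keratinocyte to it through the hemidesmosome.

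Depth ranged from 4887381 to 10328822 counts per library. The first principal component of all tested genes held 46.4% of the variance and separated the vismodegib libraries from the untreated ones, and the second, with 11.9%, set Ki67-negative library 5 apart (122 against −26.4 to 8.19 in the others). Libraries of a group were not all alike in sex-linked transcripts: Xist exceeded Ddx3y in vismodegib libraries 1, 2 and 3 and in library 5 of both untreated groups. The keratinocyte markers Krt14 and Epcam were present in every library, at 2272 to 3002 CPM and 196.9 to 372.2 CPM after vismodegib. Vismodegib library 1 held 163.9 CPM of skeletal muscle markers, against at most 3.40 in any other vismodegib library. CPM here means counts per 1000000 counts of a library after TMM scaling, and the Ki67-negative libraries carry later accession numbers, so a separate batch, if there was one, cannot be told apart from the group.

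Most collagen chain genes were lower in the nests left after vismodegib, and 3 were higher. Of the 39 tested, 23 fell and 3 rose against Ki67-positive nests at an adjusted p under 0.05 (edgeR quasi-likelihood test, Benjamini-Hochberg over 17282 genes), a share to be read against 26.0% of all genes called, 13.4% lower and 12.6% higher. Against Ki67-negative nests 23 fell and 3 rose, where 31.9% of all genes were called, 16.5% lower and 15.4% higher. The median log2 fold change of the tested collagen chain genes was −1.43 and −1.37, beside −0.02 and −0.03 for all genes. Both comparisons use the same 5 vismodegib libraries. In bulk RNA, fewer cells of a type and less RNA per cell cannot be told apart.

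The genes called were the same in both comparisons for 22 that fell and for the 3 that rose, which are Col4a6, Col17a1 and Col8a1. Col13a1 was called against Ki67-positive nests alone and Col20a1 against Ki67-negative nests alone, and 12 were called in neither. For 17 genes the vismodegib libraries did not overlap any of the 10 untreated ones, 14 of them lying below, where 13.7% of all genes did not overlap (6.68% lower and 7.06% higher). In the comparison with Ki67-positive nests the groups did not overlap for 19 (16 lower and 3 higher), where 20.3% of all genes did not overlap (10.1% lower and 10.2% higher), and in that with Ki67-negative nests for 21 (18 lower and 3 higher), where the share was 20.5% (10.2% lower and 10.4% higher). The filter on low counts left out Col9a1, Col9a2, Col6a6, Col19a1 and Col22a1, none above 3.64 CPM in any library. Of the 39 genes that passed, 29 had at least 10 counts in all 15 libraries, while Col6a4, Col26a1 and Col28a1 reached 10 counts in no vismodegib library and passed through the untreated groups. They were tested only because untreated libraries held more of them, and Col6a4 and Col26a1 are among those counted as called. Without the 3, 21 fell and 3 rose of 36 in either comparison, with medians of −1.35 and −1.23. Col2a1, Col11a2 and Col13a1 reached 10 counts in only 1 vismodegib library each. They too passed through the untreated groups, and they are still among the 36. Col26a1 and Col2a1 are also among the 17, 19 and 21 genes without overlap, Col13a1 among the 19 and Col11a2 among the 21. For these genes the filter itself favoured a place below the untreated libraries, so their lack of overlap is no separate support.

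**Figure D1:**
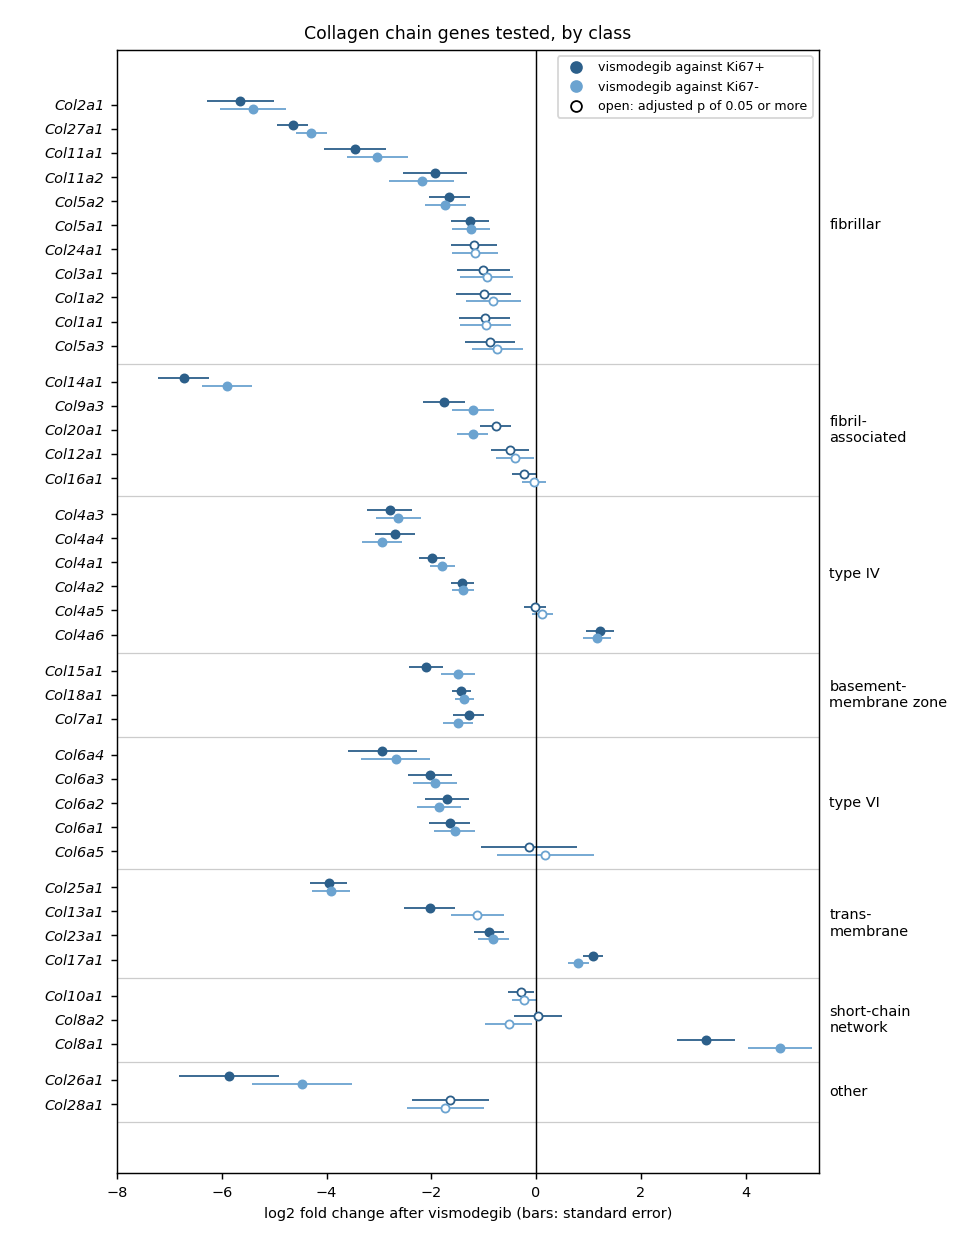
The horizontal axis gives the log2 fold change after vismodegib for each of the 39 tested genes, arranged by class, with bars of 1 standard error. Dark points are the comparison with Ki67-positive nests, light points that with Ki67-negative nests, and open points have an adjusted p of 0.05 or more. Col14a1 lies farthest left in both comparisons, and Col8a1, Col4a6 and Col17a1 are the filled points to the right of 0.

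Among the 11 fibrillar chains, 6 fell in both comparisons and none rose, where 13.4% and 16.5% of all genes were lower. The class medians were −1.26 and −1.24. Col2a1 and Col11a2 are among the 6 and passed the filter through the untreated groups. The falls were far from even. Col27a1, Col2a1 and Col11a1 fell more than 8-fold, the type V chains Col5a1 and Col5a2 fell between 2.37-fold and 3.33-fold, and the chains of types I and III, the main fibril collagens of the dermis, missed the threshold. The summed level of the class was 399 to 3369 CPM with vismodegib, 1631 to 5762 CPM in the Ki67-positive group and 2337 to 4538 CPM in the Ki67-negative group, so the groups overlap, since types I and III make up most of it.

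Col27a1 encodes the single chain of collagen XXVII, a fibrillar collagen best known from cartilage (chr4:63214009-63334991). Its level was 5.24, 4.59, 6.33, 4.98 and 3.67 CPM with vismodegib, 117, 77.5, 158, 151 and 121 CPM in the Ki67-positive group and 110.2, 139.8, 52.1, 63.7 and 124 CPM in the Ki67-negative group. The highest vismodegib library stood below the lowest untreated one by a wide gap, and both untreated groups covered a like range. The log2 fold change was −4.64 against Ki67-positive nests (SE 0.30, edgeR adjusted p = 1.9e-08) and −4.29 against Ki67-negative nests (SE 0.29, adjusted p = 3.45e-08). Its nearest relative in the class, Col24a1, moved less. It ranged from 3.16 to 12.8 CPM with vismodegib, 5.82 to 22.7 CPM in the Ki67-positive group and 5.68 to 22.0 CPM in the Ki67-negative group, with log2 fold changes of −1.19 (adjusted p = 0.0552) and −1.17 (0.052). Without vismodegib library 4 it passed the threshold against Ki67-positive nests (−1.61, edgeR adjusted p = 0.0126) and against Ki67-negative nests (−1.59, 0.0122). It also passed in both without Ki67-positive library 3 (−1.39 and −1.17, edgeR adjusted p = 0.0267 and 0.0413). The same held without Ki67-negative library 5 (−1.19 and −1.37, edgeR adjusted p = 0.0371 and 0.0233). DESeq2 on all libraries called it in both too (−1.17 and −1.16, adjusted p = 0.0311 and 0.0288).

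A search for GACCACCCA, the sequence bound by the GLI factors of the Hedgehog pathway, on both strands found 0 of 38 windows of 300 bases around the starts that RefSeq's promoter entries give for 35 collagen chain genes, some of them inside the gene model as for Col27a1, and 0.253% of all 32851 windows hold it. GC boxes (GGGCGG) were in 60.5% of collagen windows against 35.7% of all, CCAAT boxes (CCAAT) in 34.2% against 37.4%, and TATA boxes (TATAAA) in 13.2% against 13.6%.

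Col2a1 and Col11a1 encode chains of the cartilage fibril. Col2a1 and Col11a2 each reached 10 counts in only 1 vismodegib library and passed the filter through the untreated groups. Col2a1 stood at 0.154, 1.27, 1.09, 0.122 and 0.655 CPM with vismodegib, 22.7, 22.2, 72.9, 26.5 and 25.5 CPM in the Ki67-positive group and 55.8, 20.5, 16.4, 10.1 and 41.1 CPM in the Ki67-negative group. Every vismodegib library lay below every untreated one, and Ki67-positive library 3 was well above the rest of its group. Only 26 counts were seen over the vismodegib group, against 1258 and 914 in the untreated groups, and the log2 fold changes were −5.64 (SE 0.64, adjusted p = 8.66e-06) and −5.402 (SE 0.63, adjusted p = 1.02e-05). Col11a1 stood at 4.32, 0, 6.14, 7.54 and 5.63 CPM with vismodegib, 34.2, 22.5, 34.8, 88.2 and 84.5 CPM in the Ki67-positive group and 40.0, 57.6, 48.9, 22.0 and 29.0 CPM in the Ki67-negative group. Vismodegib library 2 had no Col11a1 count, and the 4 others stayed below all untreated libraries (log2 fold changes −3.45 and −3.03, adjusted p = 0.000476 and 0.00112). Col11a2, its partner chain, was low throughout, at 0.131 to 1.27 CPM with vismodegib, 1.07 to 5.79 CPM in the Ki67-positive group and 1.41 to 6.64 CPM in the Ki67-negative group, and was called lower in both comparisons (−1.93 and −2.19, adjusted p = 0.0265 and 0.0115). Its call against Ki67-positive nests was lost without any one of vismodegib libraries 1, 4 and 5, or of Ki67-positive libraries 2 and 5 (adjusted p = 0.0563 to 0.0996).

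Type V collagen starts the assembly of type I fibrils and sets their width. Its chain Col5a2 stood at 48.1, 12.7, 50.8, 88.4 and 87.5 CPM with vismodegib, 219, 106, 128, 194 and 264 CPM in the Ki67-positive group and 172, 217, 139.9, 203 and 228 CPM in the Ki67-negative group. No vismodegib library reached the lowest untreated one, although vismodegib library 2 was far below the other 4 (log2 fold changes −1.66 and −1.74, SE 0.39 and 0.39, adjusted p = 0.00508 and 0.00333). Col5a1 stood at 47.2, 21.3, 69.8, 81.7 and 114 CPM with vismodegib, 169.7, 87.9, 118, 185 and 239 CPM in the Ki67-positive group and 146, 185, 101, 159 and 201 CPM in the Ki67-negative group. Here vismodegib library 5 lay above library 2 of the Ki67-positive group and library 3 of the Ki67-negative group, so the groups touch (−1.26 and −1.24, adjusted p = 0.0158 and 0.0146). The third chain, Col5a3, was called in neither comparison (−0.89 and −0.74, adjusted p = 0.189 and 0.254) and stood at 4.43 to 8.64 CPM after vismodegib.

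The chains of types I and III spread widely within each group. Col1a1 stood at 287, 166, 626, 511 and 1354 CPM with vismodegib, 907, 586, 724, 1920.2 and 1660.1 CPM in the Ki67-positive group and 861, 1455, 731, 1233 and 1451 CPM in the Ki67-negative group. Vismodegib libraries 3 and 5 lay among the untreated libraries, and vismodegib libraries 1, 2 and 4 below all of them, library 2 by far. The log2 fold change was −0.98 against Ki67-positive nests (95% interval −2.02 to 0.07, edgeR adjusted p = 0.161) and −0.96 against Ki67-negative nests (−2.004 to 0.08, adjusted p = 0.149). This call rests on 1 library: without vismodegib library 5 the values were −1.54 (adjusted p = 0.0175) and −1.52 (0.016). Col1a2, which joins Col1a1 in type I collagen, stood at 332, 83.6, 459, 718 and 958 CPM with vismodegib, 1197, 344, 589, 1595 and 1373 CPM in the Ki67-positive group and 714, 1127, 627, 1061 and 954 CPM in the Ki67-negative group. Its groups overlap too (−0.999 and −0.81, 95% intervals −2.12 to 0.12 and −1.93 to 0.30, adjusted p = 0.181 and 0.253). Col3a1, the chain of type III collagen, ranged from 99.9 to 832 CPM with vismodegib, 359 to 1579 CPM in the Ki67-positive group and 592 to 1302 CPM in the Ki67-negative group, and had log2 fold changes of −1.01 and −0.95 (adjusted p = 0.164 and 0.171). These intervals still allow falls as large as those of type V.

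**Figure D2:**
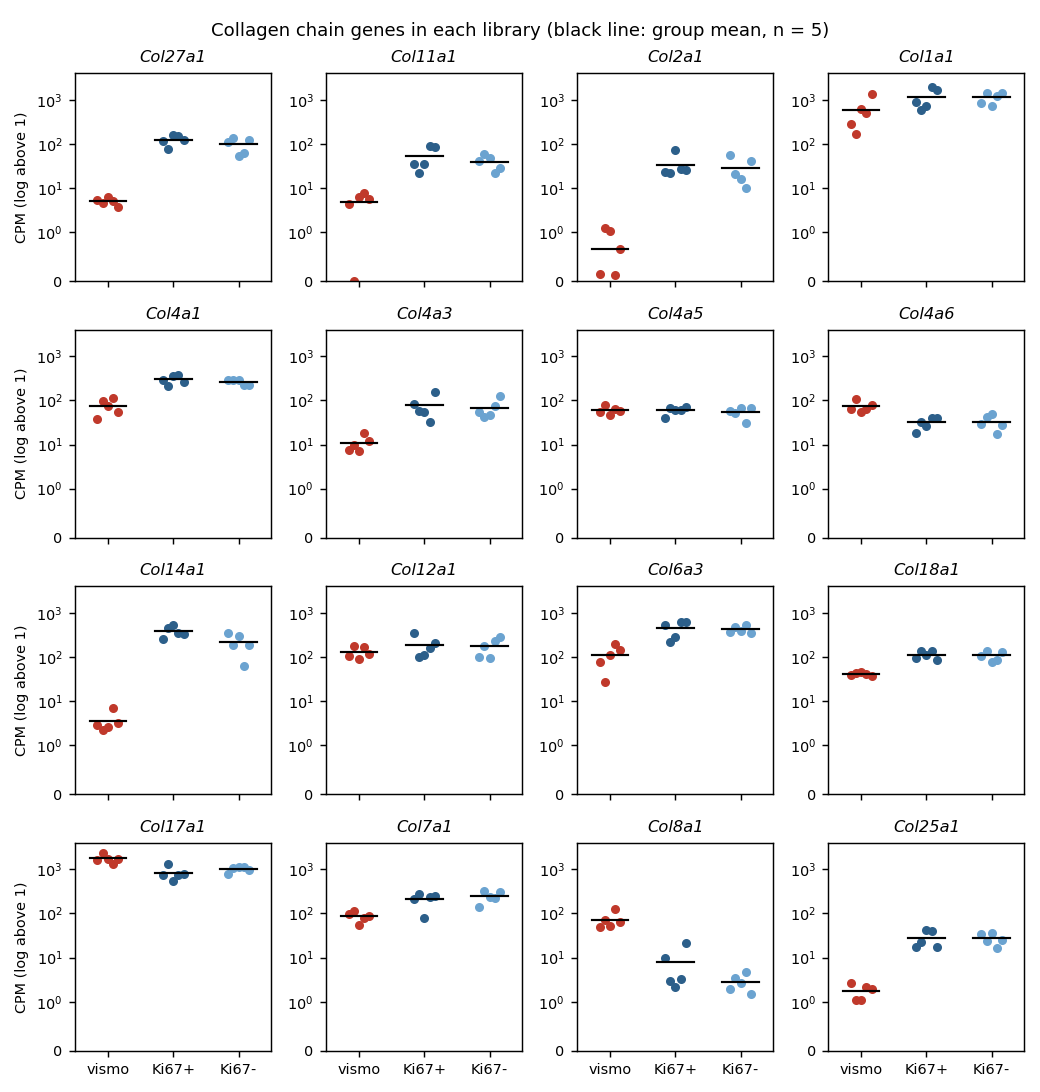
Each panel plots 1 collagen chain gene, with its CPM in each library on an axis that is logarithmic above 1 and linear below, and a black line for the mean of the 5 libraries of a group. The vismodegib points of Col27a1, Col2a1, Col14a1 and Col25a1 sit below all untreated points and those of Col4a6 and Col8a1 above them. Those of Col1a1, Col4a5 and Col12a1 overlap them. For Col1a1, vismodegib libraries 1, 2 and 4 are below all untreated points.

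Fibril-associated collagens sit on the surface of fibrils. Of the 9 listed, 5 were tested. Against Ki67-positive nests 2 fell, where 13.4% of all genes were lower, and against Ki67-negative nests 3 fell, where 16.5% were. Col14a1 (chr15:55307644-55520803), whose product binds type I fibrils and regulates their growth, had the largest fall in absolute log2 fold change of the 39 tested genes in both comparisons. It stood at 2.93, 2.21, 2.57, 6.93 and 3.14 CPM with vismodegib, 255, 457, 520.1, 343 and 336 CPM in the Ki67-positive group and 344, 182, 299.7, 61.6 and 186 CPM in the Ki67-negative group. Vismodegib library 4 was the highest of its group and still below Ki67-negative library 4, the lowest untreated library. The 5 vismodegib libraries held 140 counts in all, against 13542 and 6550, and the log2 fold changes were −6.73 (SE 0.49, adjusted p = 1.87e-07) and −5.90 (SE 0.47, adjusted p = 3.95e-07).

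Col12a1 encodes the close relative collagen XII, which also coats type I fibrils. It stood at 105, 179, 90.9, 167 and 116 CPM with vismodegib, 351, 101, 110.3, 162 and 208 CPM in the Ki67-positive group and 98.3, 176, 95.7, 227 and 276 CPM in the Ki67-negative group. The groups overlap over nearly their whole range (−0.50 with a 95% interval of −1.27 to 0.27, and −0.41 with one of −1.18 to 0.36, adjusted p = 0.338 and 0.413). Col16a1, a further relative found near basement membranes, also overlapped (−0.22 and −0.05, 95% intervals −0.70 to 0.25 and −0.53 to 0.43).

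Col20a1 stood at 17.9, 32.6, 17.8, 7.90 and 15.5 CPM with vismodegib, 24.4, 41.8, 26.4, 23.9 and 39.4 CPM in the Ki67-positive group and 38.6, 41.4, 44.4, 28.5 and 59.1 CPM in the Ki67-negative group. Vismodegib library 2 lay among the untreated libraries and the other 4 below all of them (log2 fold change −0.77, adjusted p = 0.063, against Ki67-positive nests, and −1.21, 0.00444, against Ki67-negative nests). Without that library the fall was called against Ki67-positive nests too (−1.07, edgeR adjusted p = 0.0075). With all libraries it was also called there by DESeq2 (−0.76, adjusted p = 0.0456) and limma-voom (−0.86, adjusted p = 0.0366). The same held for edgeR with the Xist term (−1.11, adjusted p = 0.00501). Col9a3, a chain of the cartilage collagen IX, stood at 3.55, 3.95, 8.02, 12.9 and 2.23 CPM with vismodegib, 14.1, 26.2, 25.5, 13.8 and 25.5 CPM in the Ki67-positive group and 19.7, 11.3, 8.48, 12.1 and 19.7 CPM in the Ki67-negative group. All vismodegib libraries were below the Ki67-positive ones, while vismodegib library 4 lay above 3 of the Ki67-negative ones (−1.76 and −1.21, adjusted p = 0.00318 and 0.0284). The second of these calls was lost without vismodegib libraries 1, 2 or 5 or Ki67-negative libraries 1 or 5 (adjusted p = 0.0598 to 0.0695). Its partner chains Col9a1 and Col9a2 were below 2 CPM in every library and were not tested.

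The 6 type IV chains are encoded by 3 head-to-head gene pairs that start close together and run in opposite directions. In RefSeq on GRCm38.p6 the models of Col4a1 (chr8:11198423-11312889) and Col4a2 (chr8:11312805-11449287) overlap by 85 bases, those of Col4a4 (chr1:82448419-82587034) and Col4a3 (chr1:82586921-82722059) by 114 bases, and those of Col4a6 (chrX:141165403-141474095) and Col4a5 (chrX:141475370-141689236) lie 1274 bases apart. Whether counting used strand is not stated in the labels or headers, so reads in the overlaps cannot be assigned to 1 gene of a pair. Across the pairs the class split: the 4 chains of the first and second pair fell, Col4a6 rose and Col4a5 was not called. Their summed level was 218 to 387 CPM with vismodegib, below the 575 to 814 CPM of Ki67-positive and 584 to 748 CPM of Ki67-negative nests.

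Col4a1 and Col4a2 build the form of type IV collagen found in nearly every basement membrane. Col4a1 stood at 38.5, 98.2, 75.0, 113 and 54.5 CPM with vismodegib, 288, 208, 367, 381 and 263 CPM in the Ki67-positive group and 295, 291, 284, 218 and 222 CPM in the Ki67-negative group. Col4a2 stood at 48.9, 92.5, 81.7, 113 and 66.0 CPM with vismodegib, 190.4, 164, 255, 270.0 and 186 CPM in the Ki67-positive group and 229, 285, 206, 191 and 152 CPM in the Ki67-negative group. For both, the highest vismodegib library was below the lowest untreated library. The log2 fold changes were −1.99 and −1.79 for Col4a1 (SE 0.25 and 0.24, adjusted p = 1.47e-05 and 3.26e-05), and −1.41 and −1.40 for Col4a2 (adjusted p = 0.0001 and 8.93e-05). Both starts lie within annotated exons, and no window is printed for them.

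Col4a3 and Col4a4 join Col4a5 in the network known from kidney glomeruli. Col4a3 stood at 7.40, 9.65, 7.13, 18.6 and 12.3 CPM with vismodegib, 84.5, 56.9, 55.2, 31.7 and 156 CPM in the Ki67-positive group and 54.9, 42.2, 47.9, 73.5 and 124 CPM in the Ki67-negative group. Col4a4 stood at 5.395, 2.69, 8.91, 7.90 and 9.69 CPM with vismodegib, 41.9, 44.5, 24.5, 31.1 and 86.0 CPM in the Ki67-positive group and 36.5, 36.7, 50.5, 53.9 and 89.9 CPM in the Ki67-negative group. Neither gene overlapped between vismodegib and untreated libraries. Library 5 of each untreated group, where Xist was above Ddx3y, was the highest of its group for both genes. In the vismodegib group the highest were library 4 for Col4a3 and library 5 for Col4a4, where Xist was not above Ddx3y. The log2 fold changes were −2.79 and −2.63 for Col4a3 (adjusted p = 0.000159 and 0.000226) and −2.70 and −2.93 for Col4a4 (5.67e-05 and 2.34e-05). With a term for the Xist status of the library in the fit, both stayed called in both comparisons.

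Col4a5 and Col4a6 join in the network found in the basement membrane of skin. Col4a6 stood at 64.1, 105, 54.9, 64.3 and 79.6 CPM with vismodegib, 18.4, 33.3, 26.6, 40.3 and 39.6 CPM in the Ki67-positive group and 29.2, 41.5, 48.5, 17.2 and 28.0 CPM in the Ki67-negative group. Every vismodegib library exceeded every untreated one, with log2 fold changes of 1.22 (SE 0.27, edgeR adjusted p = 0.00226) and 1.16 (SE 0.27, adjusted p = 0.0028). Its neighbour Col4a5 ranged from 46.0 to 78.4 CPM with vismodegib, 41.0 to 72.0 CPM in the Ki67-positive group and 31.0 to 67.2 CPM in the Ki67-negative group. Its log2 fold changes were −0.02 (95% interval −0.45 to 0.41) and 0.12 (−0.31 to 0.55), and the ratio of the pair is given below. Both genes are on the X chromosome, and Col4a6 stayed called in both comparisons with the Xist term.

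The bases just outside both gene models of the divergent pair on the X chromosome (GRCm38.p6, RefSeq) are shown because its members differed, with Col4a6 on the minus strand (chrX:141474096-141474326) and Col4a5 on the plus strand (chrX:141475169-141475369). In these windows and those below, annotated exons and gene models were left out, and capitals mark a GC box, CCAAT box or TATA box on either strand.
Col4a6: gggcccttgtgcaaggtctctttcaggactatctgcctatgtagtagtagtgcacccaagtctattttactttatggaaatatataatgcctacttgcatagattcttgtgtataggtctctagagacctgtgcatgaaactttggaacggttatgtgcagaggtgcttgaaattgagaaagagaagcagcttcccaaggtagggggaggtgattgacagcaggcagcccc
Col4a5: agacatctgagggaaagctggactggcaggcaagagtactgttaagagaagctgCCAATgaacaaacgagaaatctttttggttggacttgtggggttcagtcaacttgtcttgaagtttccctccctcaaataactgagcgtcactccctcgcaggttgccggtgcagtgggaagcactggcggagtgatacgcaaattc
The printed Col4a5 stretch holds 1 CCAAT box, and the printed Col4a6 stretch none of the motifs searched. These stretches stop 49 and 19 bases before the start. The full windows of 300 bases hold a GC box for both genes. Neither printed stretch holds GACCACCCA, which says only that these letters are not in it.

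The 3 other collagens of the basement-membrane zone all fell in both comparisons, where 13.4% and 16.5% of all genes were lower. Col7a1, the anchoring fibril that ties the basement membrane to the dermis, stood at 96.8, 117, 56.2, 80.2 and 88.3 CPM with vismodegib, 218, 280.4, 79.1, 237 and 255 CPM in the Ki67-positive group and 142, 322, 239.5, 219.7 and 307 CPM in the Ki67-negative group. Vismodegib libraries were below all untreated libraries but Ki67-positive library 3, which lay within their range (−1.29 and −1.49, SE 0.29 and 0.29, adjusted p = 0.00343 and 0.00104). Col18a1, a heparan sulfate collagen whose C-terminal fragment is endostatin, stood at 38.5, 44.1, 46.7, 41.7 and 37.6 CPM with vismodegib, 94.0, 135, 109, 139 and 86.2 CPM in the Ki67-positive group and 107, 139, 75.9, 87.0 and 132 CPM in the Ki67-negative group. Its vismodegib libraries lay close together and all below the untreated ones (−1.43 and −1.37, adjusted p = 1.55e-05 and 1.94e-05). Col15a1, its close relative, stood at 14.5, 10.1, 18.8, 20.7 and 24.1 CPM with vismodegib, 71.7, 33.6, 54.3, 124 and 96.9 CPM in the Ki67-positive group and 48.9, 69.5, 40.4, 59.9 and 30.2 CPM in the Ki67-negative group. It too did not overlap (−2.11 and −1.49, adjusted p = 0.00012 and 0.00189).

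Type VI collagen forms beaded microfilaments around cells, mostly from the chains Col6a1, Col6a2 and Col6a3. Of the 5 type VI genes tested 4 fell in both comparisons, where 13.4% and 16.5% of all genes were lower. Among the 4 is Col6a4, which passed the filter only through the untreated groups. Col6a1 stood at 54.4, 25.1, 86.6, 126 and 102 CPM with vismodegib, 263, 110.0, 152, 367 and 341 CPM in the Ki67-positive group and 197, 316, 180.3, 246 and 217 CPM in the Ki67-negative group. Col6a2 stood at 65.7, 23.1, 98.3, 117 and 141 CPM with vismodegib, 287, 139, 184, 393 and 442 CPM in the Ki67-positive group and 246, 396, 208, 362 and 399.9 CPM in the Ki67-negative group. Col6a3 stood at 75.8, 27.5, 111, 197 and 147 CPM with vismodegib, 529, 218, 278, 612 and 630.4 CPM in the Ki67-positive group and 361, 481, 393, 537 and 356 CPM in the Ki67-negative group. In each case vismodegib library 2 was the lowest of all 15, no vismodegib library reached the Ki67-negative ones, and vismodegib library 4 or 5 exceeded Ki67-positive library 2 for Col6a1 and Col6a2 but not for Col6a3. The log2 fold changes against Ki67-positive nests were −1.64, −1.70 and −2.02 (adjusted p = 0.00559, 0.00693 and 0.00242), and against Ki67-negative nests −1.55, −1.86 and −1.93 (0.00696, 0.00349 and 0.00292). The 3 chains thus fell by like amounts. Col6a4 had 18 counts over the vismodegib group against 133 and 95, and Col6a5 was not called, with 95% intervals of −2.05 to 1.79 and −1.76 to 2.11.

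**Figure D3:**
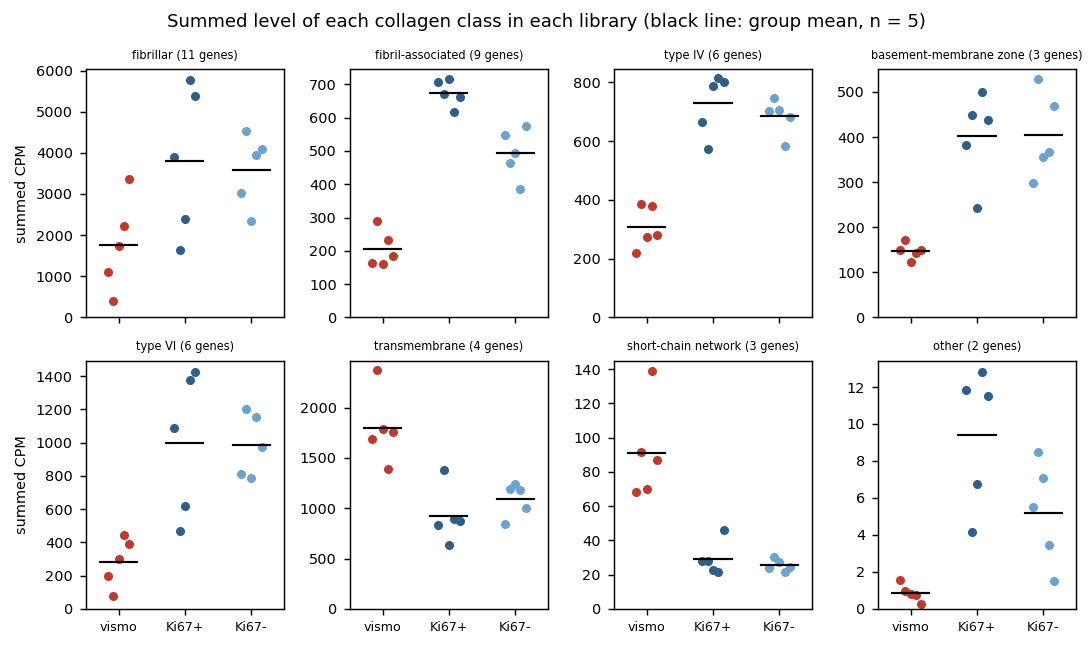
Each panel gives the summed CPM of 1 collagen class in each library, with a black line for the group mean (n = 5). The vismodegib points of type IV, type VI, the fibril-associated class and the basement-membrane zone lie below all untreated points. Those of the transmembrane and short-chain classes lie above them, and those of the fibrillar class overlap. After vismodegib Col17a1 gave 1770 of the mean 1801 CPM of the transmembrane class, and Col8a1 72.8 of the 91.1 CPM of the short-chain class. The other genes of these classes fell or were not called. In the fibril-associated class, Col14a1 gave 382 of the mean 675 CPM in Ki67-positive and 215 of 494 CPM in Ki67-negative nests. After vismodegib it gave 3.56 of 206 CPM. The separation of this class was not examined without Col14a1, and its members Col12a1 and Col16a1 were not called.

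The transmembrane collagens did not move together: Col17a1 rose while Col25a1 and Col23a1 fell in both comparisons and Col13a1 fell in 1. Col17a1, the hemidesmosomal collagen XVII of basal keratinocytes (chr19:47646341-47692042), stood at 1661, 2359, 1758, 1339.5 and 1731 CPM with vismodegib, 751, 1316, 554, 756 and 798 CPM in the Ki67-positive group and 766, 1093, 1138, 1103 and 951 CPM in the Ki67-negative group. All vismodegib libraries exceeded all untreated ones, Ki67-positive library 2 coming closest to the lowest of them. The log2 fold change was 1.08 against Ki67-positive nests (SE 0.20, adjusted p = 0.000491) and 0.81 against Ki67-negative nests (SE 0.20, adjusted p = 0.00441). Col25a1, a membrane collagen known from neurons, stood at 2.62, 1.11, 1.09, 2.19 and 1.96 CPM with vismodegib, 17.5, 22.2, 42.1, 39.5 and 17.8 CPM in the Ki67-positive group and 33.9, 24.1, 36.3, 16.2 and 25.3 CPM in the Ki67-negative group. No vismodegib library came near the untreated ones (−3.96 and −3.92, SE 0.36 and 0.36, adjusted p = 4.01e-07 and 3.95e-07).

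Col23a1, a membrane collagen found in epidermis, stood at 24.2, 19.4, 31.8, 44.5 and 25.5 CPM with vismodegib, 59.9, 42.3, 30.7, 87.6 and 51.8 CPM in the Ki67-positive group and 39.0, 70.7, 61.0, 58.3 and 28.0 CPM in the Ki67-negative group. Its groups overlap, and its calls are the least stable of the class (−0.90 and −0.82, adjusted p = 0.0293 and 0.0404). The first was lost without vismodegib library 1, 2 or 5 or Ki67-positive library 1 or 4 (edgeR adjusted p = 0.0541 to 0.107), and the second without vismodegib library 1, 2, 3 or 5 or Ki67-negative library 2, 3 or 4 (0.0628 to 0.104). With the Xist term the values were −0.73 (adjusted p = 0.0716) and −0.60 (0.129). Col13a1 had 0.393 to 1.22 CPM with vismodegib and 1.23 to 5.83 CPM in the Ki67-positive group (−2.03, adjusted p = 0.00507), and was not called against Ki67-negative nests (−1.12, 0.0961). Col13a1 reached 10 counts in only 1 vismodegib library and passed the filter through the untreated groups. The difference between its comparisons is the test of Ki67-negative against Ki67-positive nests, which was not called either (edgeR adjusted p = 0.779).

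The windows before Col17a1 (minus strand, chr19:47692095-47692292) and Col7a1 (plus strand, chr9:108953336-108953585) are shown because these collagens of the same junction moved in opposite directions.
Col17a1: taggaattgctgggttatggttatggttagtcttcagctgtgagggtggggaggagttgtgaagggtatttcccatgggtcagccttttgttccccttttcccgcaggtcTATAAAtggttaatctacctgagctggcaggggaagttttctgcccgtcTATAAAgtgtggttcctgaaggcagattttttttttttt
Col7a1: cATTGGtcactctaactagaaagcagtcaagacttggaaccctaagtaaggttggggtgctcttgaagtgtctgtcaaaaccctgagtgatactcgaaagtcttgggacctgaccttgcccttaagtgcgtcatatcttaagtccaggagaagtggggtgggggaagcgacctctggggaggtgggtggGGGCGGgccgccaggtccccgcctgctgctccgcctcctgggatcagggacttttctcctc
The printed Col17a1 stretch stops 52 bases before the start and holds 2 TATA boxes and no GC box. That of Col7a1 runs to the start and holds 1 GC box and 1 CCAAT box. The full window of 300 bases of Col17a1 holds a CCAAT box too, so the genes do not differ in having that motif.

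Short-chain collagens form hexagonal networks. Col8a1, a chain of collagen VIII known from Descemet's membrane and vessel walls (chr16:57624256-57754737), had the largest rise of the 39 genes. It stood at 50.1, 72.4, 51.5, 127 and 63.3 CPM with vismodegib, 9.98, 2.89, 2.14, 3.31 and 21.4 CPM in the Ki67-positive group and 1.94, 3.40, 2.63, 4.83 and 1.496 CPM in the Ki67-negative group. The lowest vismodegib library was above the highest untreated one, Ki67-positive library 5. The log2 fold change was 3.24 against Ki67-positive nests (SE 0.55, adjusted p = 0.000422), or 4.01 without that library, and 4.66 against Ki67-negative nests (SE 0.60, adjusted p = 3.52e-05). Col8a2, the other chain of collagen VIII, stayed at 1.42 to 8.51 CPM with vismodegib, 2.61 to 8.70 CPM in the Ki67-positive group and 4.19 to 9.06 CPM in the Ki67-negative group (0.04 and −0.53, 95% intervals −0.91 to 0.98 and −1.47 to 0.42). Col10a1, the collagen of growth-plate cartilage, stood at 14.8, 17.7, 10.1, 9.72 and 16.1 CPM with vismodegib, 15.4, 21.1, 16.4, 14.5 and 15.98 CPM in the Ki67-positive group and 15.97, 18.0, 18.6, 8.45 and 18.7 CPM in the Ki67-negative group. Its groups overlap (−0.29 and −0.22, 95% intervals −0.80 to 0.22 and −0.73 to 0.29).

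The window before Col8a1 (minus strand, chr16:57754738-57754987), the collagen chain gene that rose most, holds 4 GC boxes.
Col8a1: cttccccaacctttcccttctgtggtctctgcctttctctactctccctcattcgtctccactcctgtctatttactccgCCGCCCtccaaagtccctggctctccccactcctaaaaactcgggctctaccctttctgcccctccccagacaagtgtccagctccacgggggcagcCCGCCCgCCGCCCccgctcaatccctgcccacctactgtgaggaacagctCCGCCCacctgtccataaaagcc

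Of the 2 genes outside these classes, Col26a1 stood at 0.154, 0.158, 0, 0.243 and 0 CPM with vismodegib, 8.14, 0.482, 5.47, 9.94 and 11.5 CPM in the Ki67-positive group and 4.19, 5.95, 1.01, 1.81 and 0.449 CPM in the Ki67-negative group. It was near absent after vismodegib, while library 2 of the Ki67-positive group and library 5 of the Ki67-negative group were also low. The vismodegib libraries held 4 counts against 246 and 88, a ratio per total depth of 0.0146 (95% interval 0.00395 to 0.0379, counting error only) and 0.0369 (0.00985 to 0.0980). Col28a1 stood at 1.39, 0.791, 0.792, 0.486 and 0.262 CPM with vismodegib, 3.69, 3.70, 1.31, 2.86 and 0 CPM in the Ki67-positive group and 1.29, 2.55, 6.06, 1.66 and 1.05 CPM in the Ki67-negative group. It was low everywhere and not called (−1.64 and −1.74, adjusted p = 0.109 and 0.0794), though without Ki67-positive library 5, which had no count, the values were −1.94 and −1.74 (adjusted p = 0.0292 and 0.0343). DESeq2 on all libraries also called Col28a1 lower against Ki67-negative nests (−1.76, adjusted p = 0.0492). Col28a1 too was tested only through the untreated groups.

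Count ratios of related chains within a library do not depend on how the libraries are scaled. For 8 pairs chosen after the values above were seen, the log2 ratio of counts plus 0.5 is given as a description, with no test. Col4a6 over Col4a5 lay at 0.03 to 0.48 after vismodegib, −1.19 to −0.59 in Ki67-positive and −1.25 to −0.32 in Ki67-negative nests, a mean difference of 1.25 and 1.06. The ratio of the X-linked pair was above 0 in every vismodegib library and below 0 in every untreated one; its sign depends on the lengths of both genes, and its difference between groups does not. Col4a1 over Col4a2 lay at −0.34 to 0.09, 0.34 to 0.60 and 0.03 to 0.55, a mean difference of −0.62 and −0.45, and overlapped only with Ki67-negative nests. The third pair, Col4a3 over Col4a4, lay at −0.32 to 1.81, 0.03 to 1.17 and −0.08 to 0.59, and its groups overlap.

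The differences of the type IV pairs follow from the fold changes already given, and that of Col4a6 over Col4a5 adds no separate result. The other 5 pairs were picked because a chain moved and a relative moved less or the other way, so their ratios had to differ too. Col14a1 over Col12a1 differed by −6.40 and −5.47, Col27a1 over Col24a1 by −3.36 and −3.00, and Col8a1 over Col8a2 by 3.80 and 5.42. Col17a1 and Col7a1 act at the same junction, the first in the keratinocyte membrane and the other beneath the basement membrane, and their ratio differed by 2.32 and 2.27. Col5a2 over Col1a2 differed by −0.67, with overlap, against Ki67-positive nests and by −0.82 against Ki67-negative nests.

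**Figure D4:**
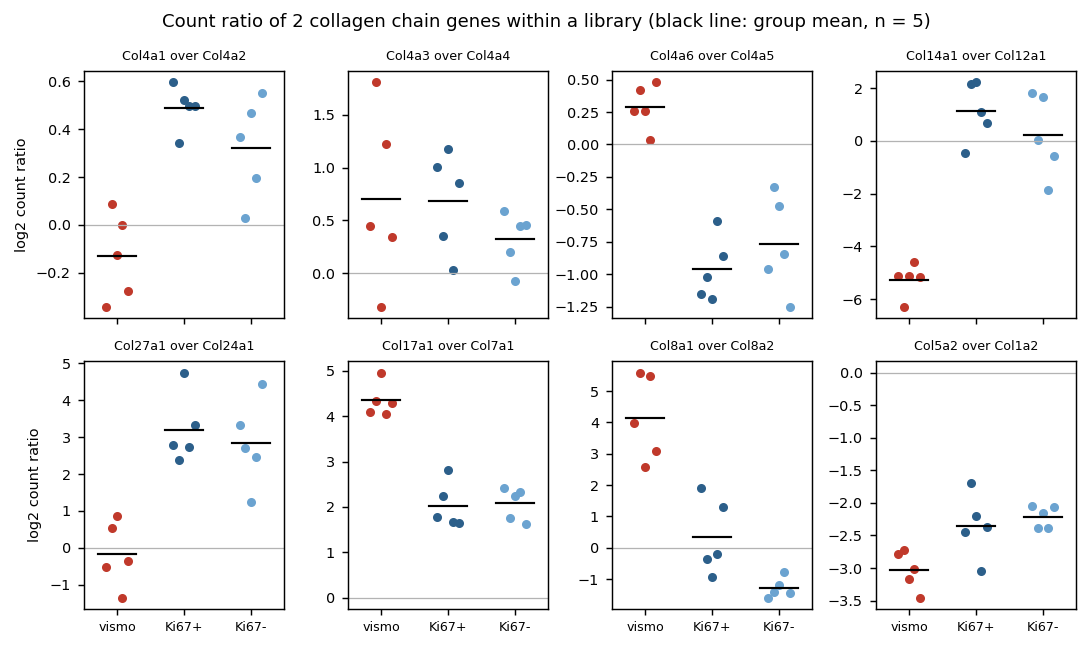
Each panel gives the log2 ratio of the counts of 2 collagen chain genes within each library, with a black line for the group mean (n = 5) and a grey line at equal counts. The axes differ between panels. Col4a6 over Col4a5 is above 0 in all 5 vismodegib libraries and below 0 in all 10 untreated ones, whereas the vismodegib points of Col4a3 over Col4a4 cover the untreated ones.

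Levels of different genes were compared on the deposited RPKM scale, which divides by gene length. Col17a1 was the highest collagen chain gene after vismodegib, at 83.9 ± 17.0 RPKM (SD, n = 5), followed by Col1a1 at 34.2 ± 26.8, Col1a2 at 27.2 ± 18.1 and Col3a1 at 25.7 ± 15.3. In Ki67-positive nests the order was Col1a1 (68.1 ± 34.9), Col1a2 (54.8 ± 28.5), Col3a1 (52.1 ± 28.4) and Col17a1 (40.2 ± 14.0), and these neighbours differ by less than their spread. In Ki67-negative nests Col1a1 (67.7 ± 19.6) led Col3a1 (50.1 ± 13.1), Col17a1 (48.8 ± 7.69) and Col1a2 (48.5 ± 11.4). After vismodegib Col1a1, Col1a2 and Col3a1 also differ by less than their spread, while Col17a1 stands above them by more than its own SD.

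Other ranks among the 44 moved further. Col14a1 went from rank 6 in Ki67-positive and 10 in Ki67-negative nests to 31 after vismodegib, at 14.98 ± 4.10, 8.49 ± 4.40 and 0.139 ± 0.0768 RPKM. Col27a1 stood at rank 14, 15 and 30. Col8a1 was at rank 33 and 34 in the untreated groups and 7 after vismodegib (0.432 ± 0.447, 0.155 ± 0.0701 and 3.91 ± 1.74 RPKM), and Col4a6 at 27, 26 and 9. Col6a1 was at rank 5 and Col7a1 at rank 12 in all 3 groups.

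**Figure D5:**
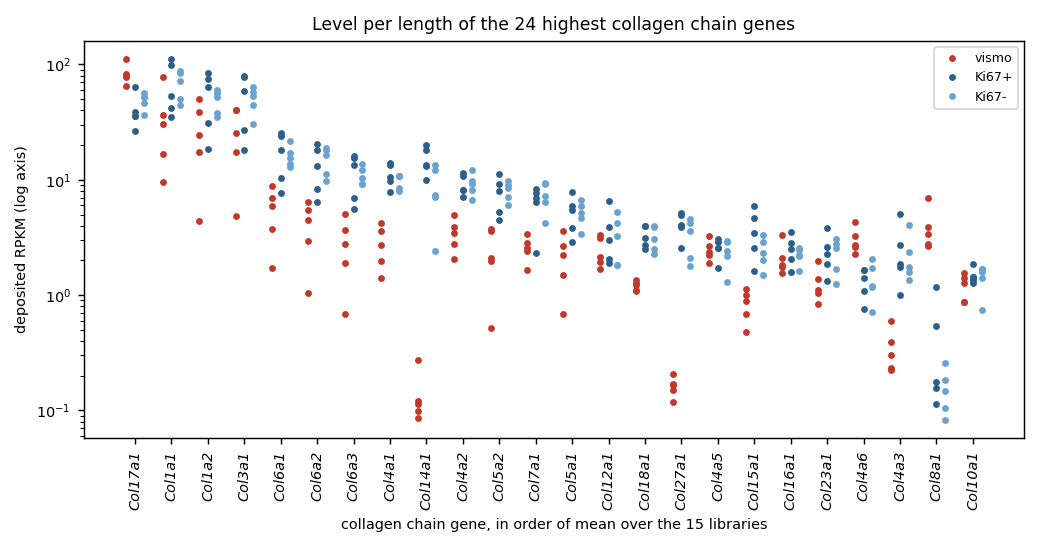
The vertical axis gives the deposited RPKM in each library on a log scale for the 24 collagen chain genes with the highest mean over the 15 libraries, in that order from left to right. Points are single libraries of the 3 groups. Col17a1 and Col1a1 to Col3a1 lead, and Col14a1, Col27a1 and Col8a1 show the vismodegib points farthest from the untreated ones.

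Between the untreated groups, which asks whether Ki67 status goes with collagen expression, none of the 39 tested genes was called (edgeR, adjusted p under 0.05), where 0.174% of all genes were, all lower in Ki67-negative nests. DESeq2 and limma-voom also called 0. At an unadjusted p under 0.05 there were 2, and 6.68% of all genes met that rule. These were Col8a1 and Col14a1, with log2 fold changes of −1.42 and −0.83 and edgeR adjusted p = 0.703 and 0.733. The groups overlapped for all 39, where 1.17% of all genes did not overlap (0.845% lower and 0.330% higher), and the median log2 fold change was −0.09, beside 0.01 for all genes. The intervals are wide for some: −1.05 to 1.02 for Col1a1 and −0.96 to 0.78 for Col6a3, but −0.43 to 0.31 for Col18a1 and −0.14 to 0.69 for Col17a1.

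The genes that help to build, bind and remodel collagen were counted from lists by role, each count to be read against 13.4% of all genes lower and 12.6% higher in the comparison with Ki67-positive nests, and 16.5% and 15.4% in that with Ki67-negative nests. Of 21 tested genes for chain modification and export, 10 fell and 1 rose against Ki67-positive nests, and 9 fell and 1 rose against Ki67-negative nests. Plod2, the lysyl hydroxylase of the telopeptides, went from 32.5 ± 5.85 and 28.8 ± 7.49 CPM in the untreated groups to 3.54 ± 1.198 CPM (−3.18 and −3.01, adjusted p = 1.66e-07 and 2.44e-07). P3h1, the prolyl 3-hydroxylase of fibrillar collagens, had log2 fold changes of −1.24 and −1.30, and Sec24d, a coat protein of procollagen export, of −1.10 and −1.07. The gene that rose was P3h2, the prolyl 3-hydroxylase that acts on type IV collagen, at 49.3 ± 11.5 CPM after vismodegib against 15.1 ± 3.18 and 15.2 ± 8.02 CPM (1.71 and 1.69, adjusted p = 0.000365 and 0.000356).

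Of 15 genes for trimming and crosslinking, 5 fell against Ki67-positive and 4 against Ki67-negative nests, and none rose. Of all genes, 13.4% and 16.5% were lower in these comparisons, and 12.6% and 15.4% higher. Tll1, a tolloid-like protease that removes procollagen ends, went from 67.9 ± 23.1 and 67.1 ± 29.8 CPM to 3.41 ± 1.46 CPM (−4.30 and −4.28, adjusted p = 4.93e-07 and 4.71e-07). Its relative Bmp1 and their enhancer Pcolce fell by less (−1.09 and −1.27 against Ki67-positive nests), as did Furin, the convertase that activates such proteases (−1.21). Among 13 collagen-binding matrix genes, 3 fell and 1 rose in both comparisons. Bgn, the proteoglycan biglycan, went from 624 ± 153 and 808 ± 145 CPM to 131 ± 56.2 CPM, and Thbs1 and Fn1 also fell. Tnxb, which encodes tenascin X, rose from 6.92 ± 4.65 and 9.63 ± 5.02 CPM to 61.9 ± 18.0 CPM (3.15 and 2.67, adjusted p = 8.5e-05 and 0.000257).

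Of 10 collagen receptors, 5 fell in both comparisons, among them Ddr2, a receptor kinase for fibrillar collagen (−1.44 and −1.74), the integrin chain Itga1 (−0.97 and −1.196), the uptake receptor Mrc2 (−1.39 and −1.14) and Adgrg1, a receptor for type III collagen (−1.03 and −0.68). Of the basement-membrane partners of type IV collagen, 17 of 20 fell against Ki67-positive and 15 of 20 against Ki67-negative nests, with none rising and medians of −1.70 and −1.67. Pxdn, the peroxidase that forms the sulfilimine crosslinks of type IV collagen, went from 229 ± 35.2 and 203 ± 12.7 CPM to 35.4 ± 12.1 CPM (−2.69 and −2.52, adjusted p = 4.64e-08 and 5.49e-08). Fras1, a protein of the skin basement membrane (−3.59 and −3.63), Npnt, which encodes nephronectin (−2.99 and −3.03), and the laminin chain Lamc1 (−1.56 and −1.56) fell as well.

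The hemidesmosome and anchoring-fibril partners of collagens XVII and VII were mixed, with 3 of 9 higher and 2 lower against Ki67-positive nests and 1 higher and 2 lower against Ki67-negative nests. Itga6, an integrin chain of the hemidesmosome, rose from 342 ± 46.8 and 323 ± 55.7 CPM to 554 ± 29.8 CPM (0.70 and 0.78, adjusted p = 0.000433 and 0.000135), and the tetraspanin Cd151 rose against Ki67-positive nests (0.43). Lama3, which encodes a laminin chain, fell in both (−0.65 and −1.004). Of 12 collagen-cleaving enzymes and their inhibitors, 3 fell and 2 rose against Ki67-positive nests, and 4 fell and 1 rose against Ki67-negative nests. Beside both lists, 13.4% of all genes were lower and 12.6% higher against Ki67-positive nests, and 16.5% and 15.4% against Ki67-negative nests. The membrane collagenase Mmp14 went from 178 ± 32.9 and 213 ± 34.1 CPM to 66.7 ± 16.9 CPM (−1.41 and −1.67, adjusted p = 1.56e-05 and 2.52e-06), Mmp16 and the inhibitor Timp1 also fell, and Dpp4 rose (0.99 and 1.63). No gene of these 7 lists was called between the untreated groups.

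Markers of other cells were counted in the same way, to be read against the same shares of all genes. The lists did not all move in 1 direction. Of 11 tested fibroblast markers, 5 fell against Ki67-positive and 6 against Ki67-negative nests and none rose, and their summed level was 1625 to 4636 CPM with vismodegib, 2116 to 5541 CPM in the Ki67-positive group and 2941 to 6317 CPM in the Ki67-negative group. Postn gave most of that sum, and Postn, Dcn and Lum were not called. Pericyte and smooth muscle markers fell in 4 of 7 in both comparisons (137 to 260.3, 617 to 959 and 685 to 1089.7 CPM). Dermal papilla and sheath markers fell in 5 and 6 of 8 (11.1 to 85.0, 531 to 1163 and 586 to 941 CPM), but most of that sum is Hhip, which is also a target gene of Hedgehog signalling. No endothelial marker of 6 was called (28.1 to 59.5, 13.2 to 57.1 and 11.3 to 85.0 CPM).

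Keratinocyte markers summed to 12661 to 16222 CPM with vismodegib, 7390.5 to 8957 CPM in the Ki67-positive group and 5448 to 9025 CPM in the Ki67-negative group, with 4 of 8 higher in both comparisons (Krt14, Krt5, Krt15 and Cdh1), Cdh3 lower in both and Krt17 lower against Ki67-positive nests. Myeloid and Langerhans cell markers summed to 766 to 1907, 74.7 to 432 and 132 to 516 CPM, with 4 of 8 higher in both and Cd14 lower against Ki67-negative nests. T cell markers rose in 4 and 3 of 5. Their summed level overlapped between the groups (75.7 to 153, 70.9 to 176 and 80.0 to 159 CPM). Thy1, 1 of the 5, is also on the fibroblast list and fell against Ki67-negative nests. Melanocyte markers fell in 4 and 3 of 6, while Mitf rose against Ki67-negative nests (98.0 to 401, 335 to 1521 and 181 to 1191 CPM) and Schwann cell markers fell in 1 and 2 of 4, while Mbp rose in both (66.3 to 135, 348 to 678 and 300.1 to 653 CPM). No marker of these lists was at 0 in all libraries of a group, and the part of these cells in the collagen results was not tested.

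Vismodegib library 2 was the lowest of its group for 16 tested collagen chain genes, among them Col1a1, Col1a2, Col3a1, the type V chains and Col6a1 to Col6a3, and the highest for 11, among them Col17a1, Col4a6, Col7a1 and Col12a1. Without it, 26 and 24 of the 41 collagen chain genes that then passed the filter were called against Ki67-positive and Ki67-negative nests, where 25.6% and 31.2% of all genes were called in that fit.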

How the data were processed

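Polyadenylated RNA was sequenced from 15 libraries of laser-captured tumour nests, 5 in each of 3 groups. Reads were aligned with GSNAP to GRCm38, per the submitters' processing notes, and the deposited counts are reads aligning uniquely to a gene model, per the file headers. Per the file headers, the deposited RPKM values were adjusted with size factors, and each was found to equal the count times a constant per gene and library. The version of the aligner, the gene models' release and whether strand was used are not stated in the labels or headers. Uniquely aligned reads undercount genes with near-identical copies.

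Counts were tested as deposited with edgeR 4.0.16 (R 4.3.3): TMM, filterByExpr (at least 10 counts per library in enough libraries and 15 in total), which kept 17282 genes, and robust quasi-likelihood F tests in a single fit of the 15 libraries (12 residual degrees of freedom), two-sided, Benjamini-Hochberg over all genes, called at 0.05. The standard error is the log2 fold change divided by the square root of F. The script was tested on simulated data. Alternatives were RLE scaling, DESeq2 1.42.0, limma-voom 3.58.1, no filter, a stricter filter of 50 counts in 5 libraries, only the groups compared, a term for Xist status and leaving out each library. No pair of libraries in a group agreed within sampling noise (chi-square of 13.2 to 43.3 per degree of freedom).

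Symbols and coordinates are from RefSeq on GRCm38.p6, counted from 1, and GENCODE M21 exons and RefSeq gene models were masked in the printed windows. Intervals on count ratios are 95% intervals of counting error. Values in every library are given for the 29 members called in a comparison with an average log2 CPM of at least 3 or among the 2 highest of their class, and for the collagen-related lists up to 4 called genes with the smallest adjusted p. The members and lists were chosen with earlier results of these data known, and the ratio pairs after the values were seen. Among the genes this rule names, 1 is not reported here.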

Additional observations from a re-analysis of the deposited data

Results flagged for a closer look

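In 4 of 87 groups of 5 libraries examined, the highest or lowest library stood apart from the rest by a gap of more than 0.71 of the group's range, where chance gives about 1 in 20. Col2a1 was at 72.95 CPM in Ki67-positive library 3, against 22.19 to 26.51 in the others of that group. Col14a1 was at 6.928 CPM in vismodegib library 4, against 2.214 to 3.143. Col10a1 was at 21.06 CPM in Ki67-positive library 2, against 14.51 to 16.4, and at 8.455 CPM in Ki67-negative library 4, against 15.97 to 18.7.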

How the results depend on the processing

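Under 22 alternatives, between 22 and 28 collagen chain genes were called in each comparison with vismodegib, 3 of them higher every time and 19 to 25 lower, and leaving out a library gave 24 to 27. Between the untreated groups 0 were called under every alternative. Of the 26 calls against Ki67-positive nests 24 held under every alternative in which the gene was tested, the exceptions being Col11a2 and Col23a1, and of those against Ki67-negative nests 23 held, the exceptions being Col9a3, Col23a1 and Col26a1 (adjusted p = 0.0515 by limma-voom). Col1a1, Col24a1 and Col28a1 were gained in both under some alternatives, and Col20a1 against Ki67-positive nests. No call changed direction. The number of all genes called between the untreated groups did depend on the method, at 30 by edgeR, 83 by DESeq2, 15 by limma-voom and 0 with only the 2 groups in the fit. No paired analysis was possible because the labels give no replicate numbers and do not say which mouse a library came from. Genes under about 10 counts per library, such as Col6a4, Col26a1 and Col28a1 after vismodegib, are limited by depth.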
